A study of Mus musculus with 8 samples.

Results

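Cytosolic ribosomal protein genes encode the protein subunits of the ribosomes that translate messenger RNA in the cytoplasm. The members were chosen by symbol: every row of the deposited gene table named Rpl or Rps with a number and at most 1 of the letters a, x or l, together with Rplp0, Rplp1, Rplp2 and Rpsa, except 1 symbol that is not analysed here. This gave 80 of the 19348 genes in the table, 32 of the small subunit and 48 of the large subunit. Of these, 77 passed the filter on low read counts, against 12338 genes in all. The 3 that did not are Rpl10l with 0 reads in the 8 libraries together, Rpl39l with 1 read and Rpl3l with 6 reads.

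The series measured messenger RNA by sequencing in liver of mice at 5 weeks of age and compared Stab1 knockout (5 libraries) with wild type (3 libraries). Stab1 codes for stabilin-1, a clearance receptor found on the endothelium of liver sinusoids and on macrophages. The labels give genotype, age and tissue. They do not give the strain, the sex, the extent of the deletion, or whether each library came from a separate animal, so a p-value here is set against library-to-library spread of unknown origin, possibly technical. In whole liver, a lower share of a cell type and a lower amount of RNA per cell cannot be told apart.

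A eukaryotic ribosome joins a small subunit, which reads the messenger RNA, and a large subunit, which forms the peptide bond. Its proteins are needed in matched amounts, and their messages are among the most abundant in liver. Most of these messages begin with a run of pyrimidines at the 5′ end, through which growth signals acting by mTORC1 control their translation. The genes are short, and mammalian genomes hold many processed copies of them.

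Library totals ran from 4.85 M (mega) reads in knockout library 1 to 10.79 M in wild-type library 2. The targeted gene Stab1 averaged 1.22 ± 0.378 CPM (SD, n = 5; CPM are read counts per mega-read of library size) in the knockout libraries. The wild-type libraries averaged 51.0 ± 4.52 CPM (SD, n = 3). Its log2 fold change was -5.38 with a standard error (SE) of 0.22 and an edgeR quasi-likelihood adjusted p (Benjamini-Hochberg) of 3.14e-06. Knockout library 1 stood apart: it was the shallowest, and it held 3 reads of Xist, transcribed from the inactive X chromosome of females, against 4445 to 8222 in the other libraries, and 320 reads of the Y-linked Ddx3y against 0 to 4. The labels name no sex that would set this library apart. Results that rest on it are given with and without it.

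No ribosomal protein gene differed between knockout and wild-type liver at an adjusted p below 0.05, although nearly all had a higher mean level in the knockout libraries. Of the 77 tested members, 0 were called higher and 0 lower, against a background of 0.0729% of all tested genes called higher and 0.154% called lower. The lowest adjusted p among the members was 0.331 (edgeR quasi-likelihood test, Benjamini-Hochberg). The log2 fold change (knockout over wild type) was positive in 74 of 77 members, or 96.1%, against 49.1% of all tested genes and 90.1% of other tested genes of at most 1000 bases. With a correction for gene length it was positive in 33 of 77, with a median of -0.06. Without that correction its median over the members was 0.33, with quartiles of 0.20 and 0.53, and its median over all tested genes was -0.01. Before correction for multiple testing, 25 of 77 members had a p below 0.05 with a higher level, against a background of 7.73%, and 0 had one with a lower level, against 5.9%. The groups overlapped in 74 of 77 members. Every knockout library lay above every wild-type library in 3 members, against a background of 3.04% of tested genes, and below in 0 members, against 3.61%.

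**Figure D1:**
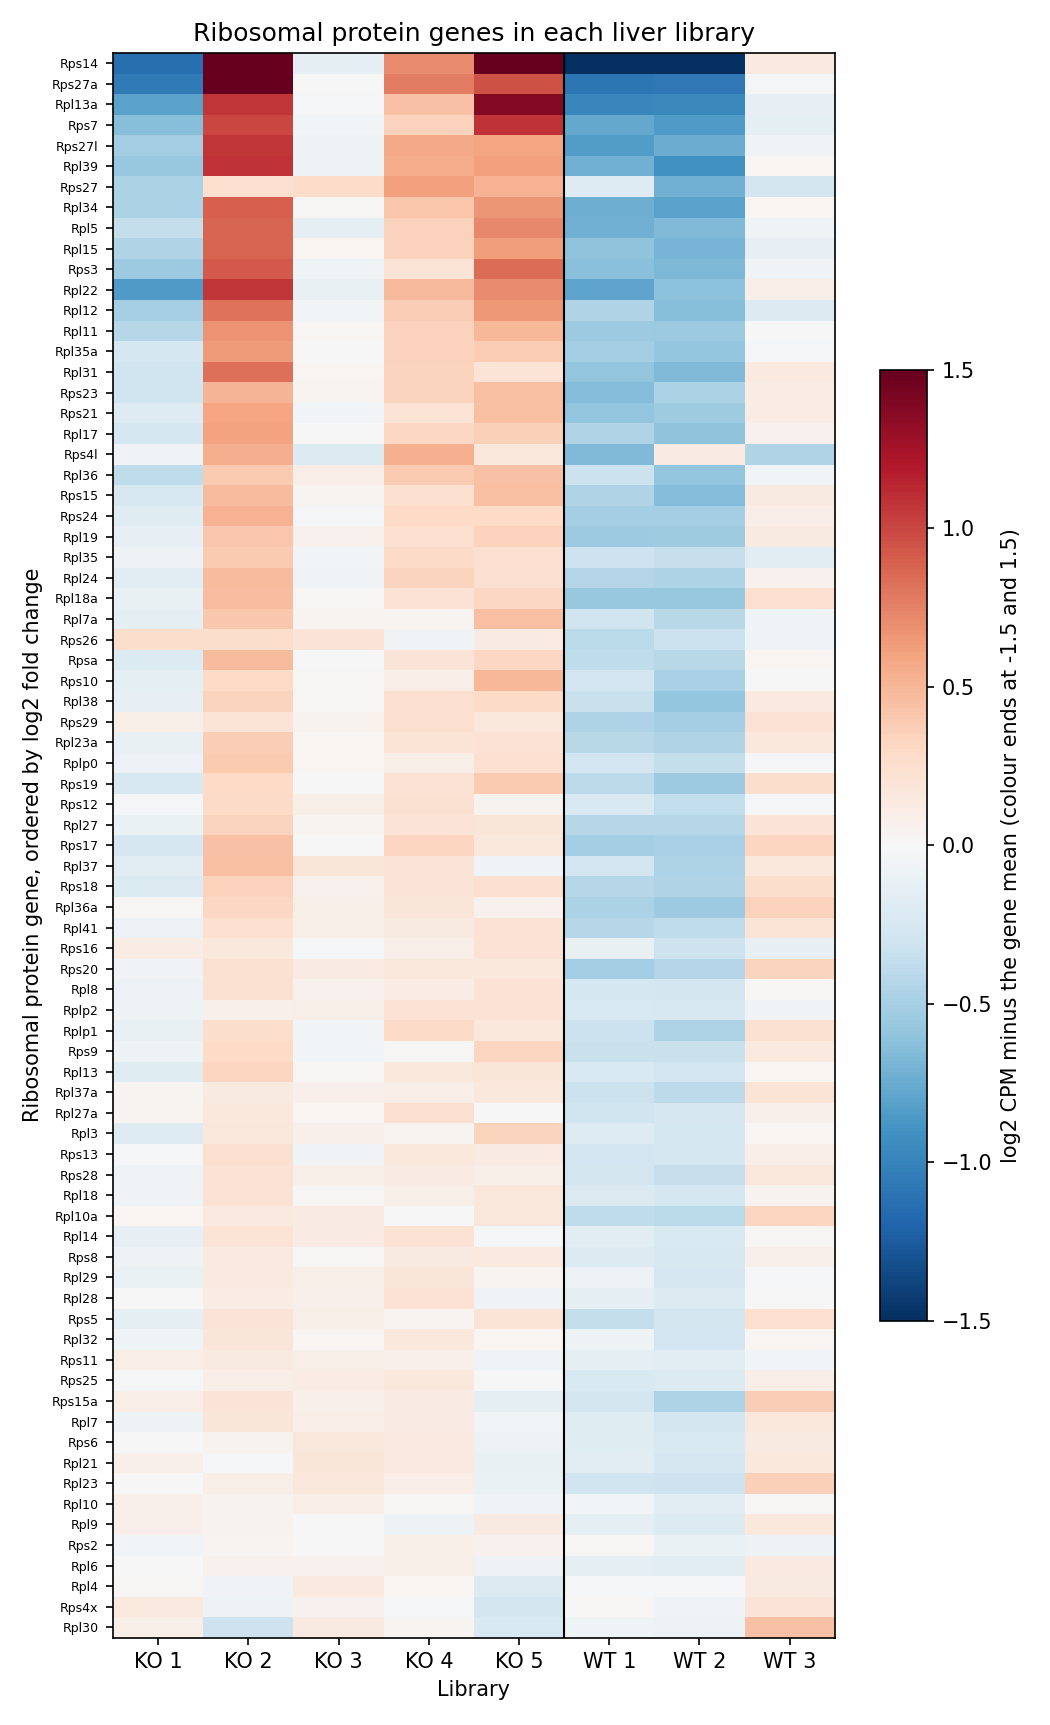
Level of the 77 tested ribosomal protein genes (rows, ordered by log2 fold change) in the 5 knockout (KO) and 3 wild-type (WT) libraries, as log2 CPM minus the gene's mean over the 8 libraries. Wild-type libraries 1 and 2 are the 2 lowest for 65 of 77 genes, wild-type library 3 lies near knockout library 3, and the spread between libraries is widest in the genes at the top.

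Among the small subunit genes, the widest difference was in Rps14 (GeneID 20044), whose protein lies on the platform of the small subunit and whose human counterpart is lost in the 5q- form of myelodysplastic syndrome. Its level was 163, 1073, 326, 582 and 1335 CPM in knockout libraries 1 to 5 and 125, 119 and 395 CPM in wild-type libraries 1 to 3. Knockout libraries 2 and 5 were far above the rest, and wild-type library 3 exceeded knockout libraries 1 and 3, so the groups overlapped. The highest knockout library held 8.17 times the level of the lowest, and the log2 fold change of 1.71 (SE 0.68) had an edgeR quasi-likelihood adjusted p of 0.341.

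Rps27a, which encodes a small subunit protein made as a fusion with ubiquitin, stood at 179, 1076, 371, 637 and 724 CPM in the knockout and at 176, 178 and 368 CPM in the wild-type libraries. Here knockout library 1 lay level with wild-type libraries 1 and 2, and knockout library 3 level with wild-type library 3. The log2 fold change was 1.31 (SE 0.51, edgeR adjusted p 0.339). Rps7, a protein of the small subunit that can bind the p53 inhibitor MDM2, stood at 213, 668, 324, 424 and 702 CPM against 195, 184 and 303 CPM. Only knockout library 1 fell within the wild-type range, and the log2 fold change was 1.04 (SE 0.38, edgeR adjusted p 0.333).

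Rps27l, a p53-inducible close relative of Rps27, stood at 106, 319, 144, 224 and 227 CPM against 84.4, 90.2 and 146 CPM, with a log2 fold change of 0.93 (SE 0.34). Knockout libraries 1 and 3 lay below wild-type library 3. Rps27 itself had 3 reads in knockout library 1 and at most 1.48 CPM in any library, so its log2 fold change of 0.87 (SE 0.37) rests on very few reads. Uniquely mapped reads covered 31.7% of its length on average.

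Other small subunit genes differed less. Rps19, the gene most often mutated in Diamond-Blackfan anaemia, stood at 99.2, 144, 118, 137 and 154 CPM against 89.0, 80.5 and 141 CPM, and wild-type library 3 was within the knockout range. The log2 fold change was 0.33 (SE 0.22, edgeR adjusted p 0.476). Rpsa, the 40S protein also known as the laminin receptor, stood at 528, 842, 604, 693 and 755 CPM against 464, 453 and 618 CPM. Its log2 fold change was 0.42 (SE 0.19, edgeR adjusted p 0.368), and knockout libraries 1 and 3 fell below wild-type library 3. Rps6, the target of S6 kinase, stood between 351 and 419 CPM in the knockout and between 318 and 411 CPM in the wild-type libraries, with a log2 fold change of 0.14 (SE 0.15).

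Over the small subunit, 31 of 32 members had a positive log2 fold change, with a median of 0.33. The exception was Rps4x, the X-linked form of a core small subunit protein, at 332, 284, 313, 293 and 247 CPM against 304, 289 and 342 CPM. Its log2 fold change was -0.09 (SE 0.15, edgeR adjusted p 0.790), and here knockout library 5, the highest for Rps14, was the lowest of the 8.

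**Figure D2:**
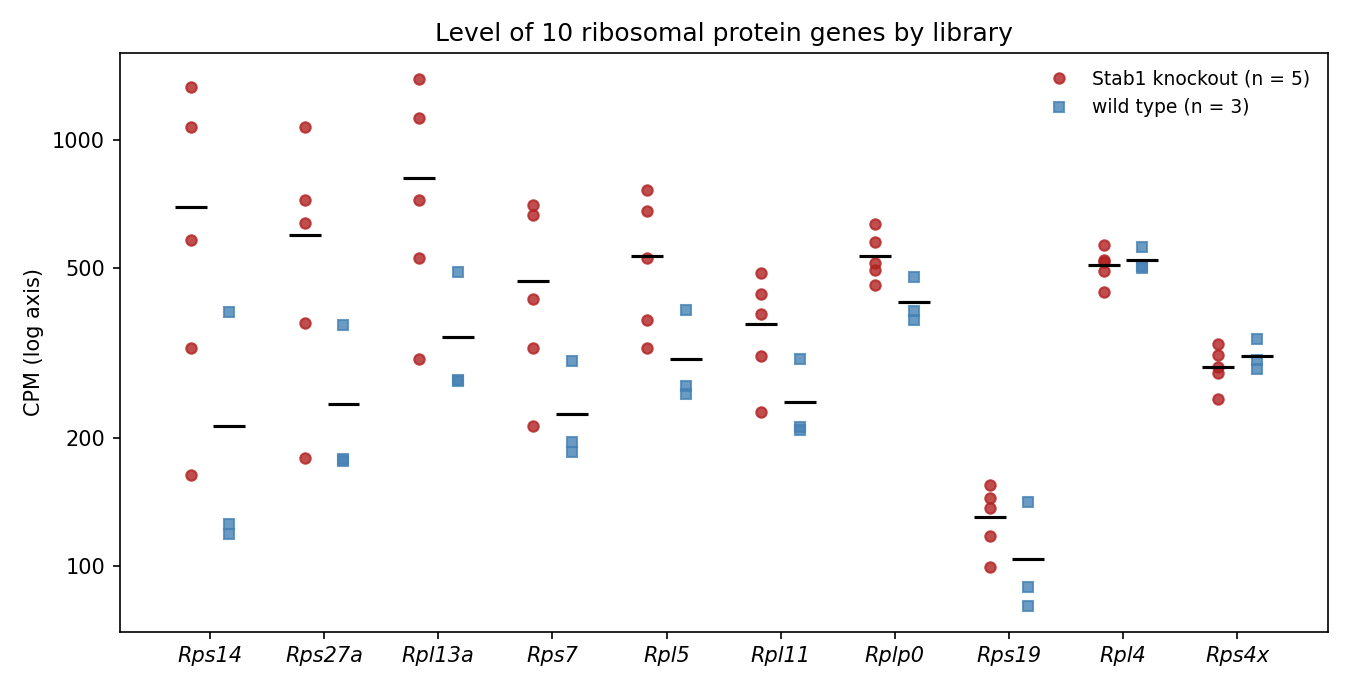
CPM (log axis) of 10 ribosomal protein genes in each library; circles are knockout libraries, squares wild-type libraries and bars group means. The knockout libraries run from 163 to 1335 CPM for Rps14 and from 440 to 568 CPM for Rpl4, and the groups overlap for all 10 genes.

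Among the large subunit genes, the highest log2 fold change was that of Rpl13a (GeneID 22121), whose protein can leave the ribosome to silence inflammatory messages. Its level was 306, 1128, 528, 724 and 1390 CPM in knockout libraries 1 to 5 and 272, 274 and 489 CPM in the wild-type libraries. Knockout library 1 alone was below wild-type library 3. The log2 fold change was 1.24 (SE 0.45, edgeR adjusted p 0.333).

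Rpl5 and Rpl11 join the 5S ribosomal RNA in a particle that binds MDM2 when ribosome assembly is disturbed. Rpl5 stood at 325, 764, 379, 528 and 684 CPM against 253, 264 and 398 CPM, with a difference of 0.81 in log2 (SE 0.30, edgeR adjusted p 0.334). Rpl11 stood at 229, 488, 310, 391 and 434 CPM against 211, 208 and 306 CPM, with a difference of 0.62 in log2 (SE 0.26, edgeR adjusted p 0.348). For both, knockout library 1 fell within the wild-type range, and for Rpl5 so did knockout library 3.

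Rpl22, a protein on the outer face of the large subunit that is dispensable for bulk translation, stood at 82.0, 311, 137, 206 and 241 CPM against 84.9, 96.0 and 159 CPM. Knockout library 1 was the lowest of all 8, and the log2 fold change was 0.79 (SE 0.39, edgeR adjusted p 0.388). Rpl39, a short protein lining the exit tunnel for the growing chain, stood at 125, 392, 176, 272 and 284 CPM against 113, 98.3 and 189 CPM, and Rpl34 stood at 31.5, 81.9, 44.2, 58.4 and 69.4 CPM against 26.3, 25.1 and 44.8 CPM. Their log2 fold changes were 0.91 (SE 0.36) and 0.84 (SE 0.31), and in both wild-type library 3 exceeded knockout libraries 1 and 3.

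The 3 stalk genes, whose proteins recruit elongation factors, had log2 fold changes of 0.36 for Rplp0 (SE 0.16), 0.28 for Rplp2 (SE 0.13) and 0.27 for Rplp1 (SE 0.19). Rplp0, the anchor of the stalk, stood at 456, 637, 494, 514 and 575 CPM against 396, 377 and 477 CPM, so knockout library 1 alone fell within the wild-type range. Rplp2 varied little: 47.7, 53.1, 53.2, 58.1 and 58.2 CPM against 42.9, 42.5 and 48.6 CPM, again with knockout library 1 alone in the wild-type range. In Rplp1 the wild-type library 3, at 471 CPM, exceeded knockout libraries 1, 3 and 5.

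Rpl3, which shapes the peptidyl transferase centre, and Rpl10, which joins late as the large subunit matures, differed little. Rpl3 stood between 340 and 491 CPM in the knockout and between 323 and 398 CPM in the wild-type libraries, with a log2 fold change of 0.23 (SE 0.16). Rpl10 stood between 461 and 514 CPM against 425 to 486 CPM, with a log2 fold change of 0.10 (SE 0.13). Rpl6 had a log2 fold change of 0.07 (SE 0.14).

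Over the large subunit, 43 of 45 tested members had a positive log2 fold change, with a median of 0.30. The exceptions were Rpl4, a tunnel protein, and Rpl30. Rpl4 stood at 519, 492, 568, 522 and 440 CPM against 505, 501 and 562 CPM, giving a difference of -0.04 in log2 (SE 0.14, edgeR adjusted p 0.898). Its groups overlapped throughout, and the highest and lowest library were both knockout libraries. Rpl30 stood at 29.1, 22.1, 30.3, 28.2 and 23.3 CPM against 26.2, 25.8 and 37.3 CPM, giving a difference of -0.16 in log2 (SE 0.17, edgeR adjusted p 0.663), with wild-type library 3 the highest of the 8.

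The 3 members whose groups did not overlap were Rps26, Rpl35 and Rps16, of which Rps16 is named only because its values were seen. Rps26, which lies at the messenger RNA exit channel, stood at 80.4, 80.6, 76.8, 64.9 and 73.3 CPM against 50.5, 53.8 and 64.1 CPM. A log2 fold change of 0.42 (SE 0.14) came with an edgeR adjusted p of 0.331. Rpl35, at the exit site of the tunnel, stood at 117, 162, 120, 151 and 147 CPM against 99.4, 97.3 and 110 CPM, giving a difference of 0.45 in log2 (SE 0.15, edgeR adjusted p 0.332). Rps16 stood at 219, 227, 199, 216 and 235 CPM against 187, 164 and 187 CPM, giving a difference of 0.29 in log2 (SE 0.13, edgeR adjusted p 0.366). In Rps26 the gap between the groups was narrow, 64.9 against 64.1 CPM, and knockout libraries 2 and 5 were not set apart as they were in Rps14.

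Groups of members are given by their counts and medians, with no test between them. The 17 genes mutated in Diamond-Blackfan anaemia, an inherited red cell aplasia, all had positive log2 fold changes, with a median of 0.45, and 0 were called. The 8 genes of the exit tunnel and exit site had a median of 0.51, with 7 positive, and 0 were called. Over all 77 tested members 96.1% were positive, with a median of 0.33. Of all tested genes, 49.1% were positive, 0.0729% were called higher and 0.154% were called lower. With the length correction the medians of the 2 groups were -0.02 and 0.16. Members with larger log2 fold changes also had a wider spread over the libraries. The rank correlation between the log2 fold change and the SD of log2 CPM was 0.93 over the 77 members. Both were taken from the same 8 libraries. The SD was over both groups together, so it includes the difference between the groups, and a high correlation is partly built in. A total of 21 members had a log2 fold change of 0.5 or more, and 13 of 0.75 or more.

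Some members are copies with restricted expression in other tissues. Rpl3l is known from muscle, Rpl10l from testis and Rpl39l from male germ cells, and these are the 3 members that did not pass the filter. Rpl10l had no read in any library. Rpl39l had its single read in knockout library 4, and Rpl3l reached at most 0.231 CPM. Rps4l, a copy of Rps4x, was detected at 14.9, 22.5, 13.3, 22.3 and 17.4 CPM against 9.63, 16.9 and 11.2 CPM, and the groups overlapped. The log2 fold change was 0.53 (SE 0.24, edgeR adjusted p 0.369), and wild-type library 2, low for most members, was the highest wild-type library here.

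The members moved together over the libraries. A single axis held 90.1% of the variance of their log2 CPM over the 8 libraries. The median correlation of 2926 gene pairs was 0.83, a description over libraries that share depth and scaling. The same values are not given for other genes, and other short genes placed the libraries in nearly the same order, as described below. Together they took 1.68, 2.43, 1.86, 2.11 and 2.28% of all reads in knockout libraries 1 to 5 and 1.39, 1.35 and 1.87% in wild-type libraries 1 to 3. Knockout libraries 2, 5 and 4 were the highest and wild-type libraries 1 and 2 the lowest, while wild-type library 3 lay within the knockout range.

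The order of the libraries did not follow the groups. Knockout library 2 or 5 was the highest of the 8 in 53 of 77 members, and wild-type libraries 1 and 2 lay below every knockout library in 66. Wild-type library 3 lay above both other wild-type libraries in 73 members, above knockout library 1 in 70, above knockout library 3 in 45 and above all knockout libraries in 11. Leaving out 1 library moved the counts. Without wild-type library 3, 55 of 77 members had an unadjusted p below 0.05 with a higher level, against a background of 12.1%, and the median log2 fold change was 0.53. Without wild-type library 1 the count was 0, against 3.11%, and without wild-type library 2 it was 1, against 2.75%, with a median of 0.22. Without knockout library 1 it was 38, against 13.2%. Leaving out knockout library 2 gave 7 members, against 4.61%, leaving out library 4 gave 14, against 5.27%, and leaving out library 5 gave 10, against 4.81%. With the replicate number as a block it was 1, against 1.57%.

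In the other test, calls among the members differed with and without knockout library 1. No other library was left out in that test. In DESeq2 with all libraries, 0 members were called, against a background of 0.435% called higher. Without knockout library 1, DESeq2 called 17 members higher, against a background of 5.52%, an alternative chosen after seeing the data. These were Rpl5, Rpl11, Rpl12, Rpl13a, Rpl15, Rpl17, Rpl22, Rpl34, Rpl35, Rpl35a, Rpl36, Rpl39, Rpl7a, Rps3, Rps7, Rps27a and Rps27l. In edgeR without the same library, 0 members were called, against 0.415%, and the lowest adjusted p was 0.073.

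**Figure D3:**
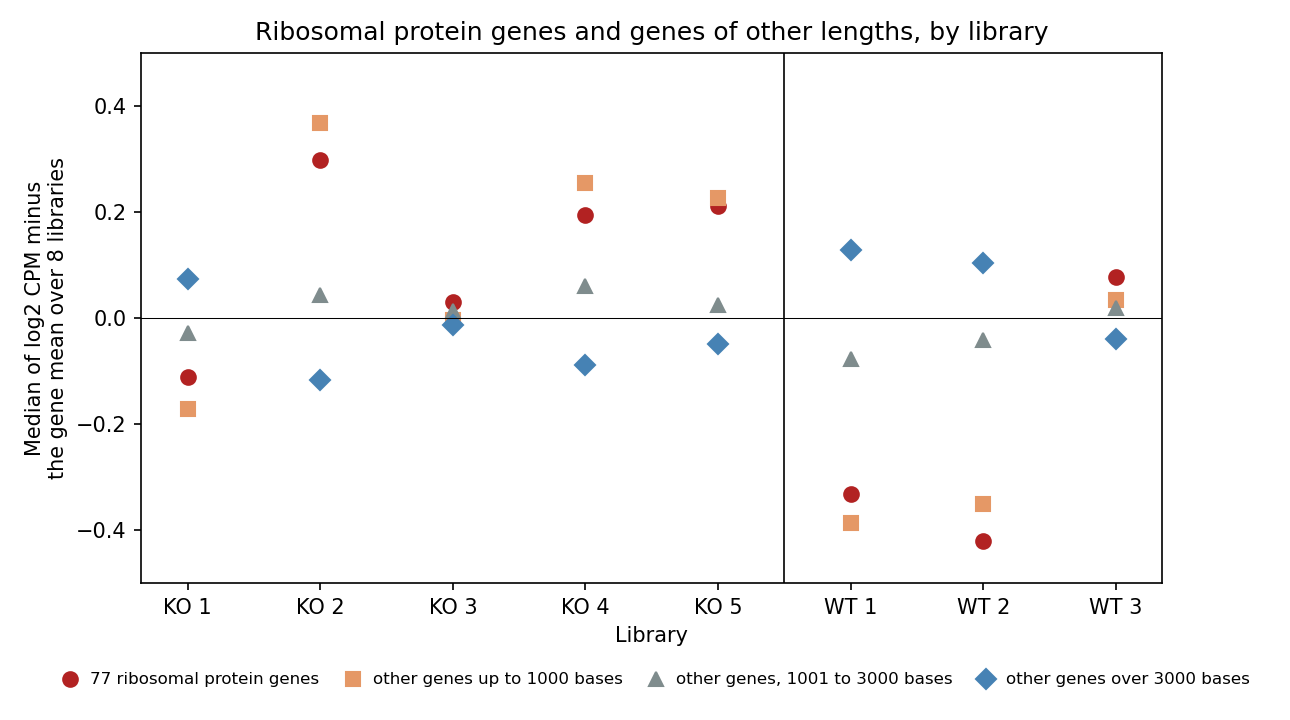
Median, in each library, of log2 CPM minus the gene's mean, for the 77 tested ribosomal protein genes and for other tested genes in 3 classes of length. The ribosomal protein genes and the other genes of up to 1000 bases sit close together in every library, from -0.42 and -0.39 at their lowest to 0.30 and 0.37 at their highest, and genes over 3000 bases lie on the other side of 0 except in knockout library 3, where all 4 medians are near 0.

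The pattern over libraries was shared with other short genes. The members are short: the table's Length column runs from 328 to 5158 bases over the 77 tested members with a median of 708, against a median of 2838 over all tested genes, and 59 of 77 are of at most 1000 bases, against 6.94% of all tested genes. In knockout libraries 1 to 5, the members' median deviation from the gene mean was -0.11, 0.30, 0.03, 0.19 and 0.21 in log2 CPM, and in wild-type libraries 1 to 3 it was -0.33, -0.42 and 0.08. For the 797 other genes of at most 1000 bases the same medians were -0.17, 0.37, -0.0032, 0.25 and 0.23 in knockout and -0.39, -0.35 and 0.03 in wild-type libraries. Both sets placed the libraries in nearly the same order, and genes over 3000 bases ran the opposite way, from -0.12 in knockout library 2 to 0.13 in wild-type library 1.

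Between the groups, the 59 members of at most 1000 bases had a median log2 fold change of 0.33 and the 797 other genes of that length one of 0.37. Of those members 96.6% had a positive value, against 90.1% of the other genes. An unadjusted p below 0.05 with a higher level was found in 35.6% of the members, 21 genes, and in 31.1% of the other genes. The groups did not overlap in 5.08% of the members and 6.65% of the other genes, higher in knockout. In these measures the short members resembled other short genes in size, and the difference between the sets was not tested.

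In classes of length, other genes had median log2 fold changes of 0.61 up to 500 bases, 0.41 to 750, 0.32 to 1000, 0.19 to 1500 and 0.07 to 2000 bases, and -0.15 above 6000 bases. The members' medians were 0.37 (15 genes), 0.31 (28), 0.30 (16), 0.23 (11) and 0.61 (4) in the first 5 classes. Over all tested genes the log2 fold change fell by 0.15 for each doubling of Length (rank correlation -0.35 over 12338 genes), while over the 77 members the slope was -0.0053 (rank correlation -0.14). The members' slope has no steady sign: it was 0.00067 without knockout library 4, 0.0021 without wild-type library 2 and 0.20 with a correction for gene length. These are descriptions over genes measured in the same libraries.

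**Figure D4:**
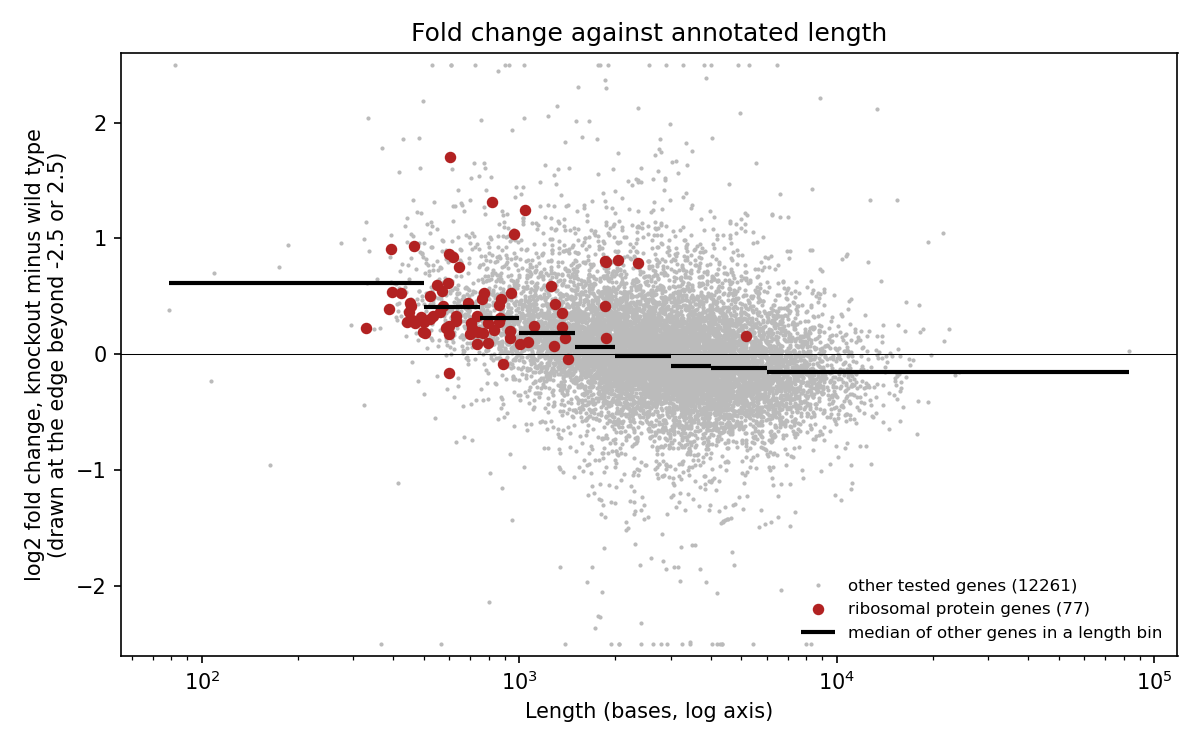
Log2 fold change (knockout minus wild type) against Length in bases (log axis) for 77 ribosomal protein genes (large points) and the other tested genes (small points); bars are medians of the other genes in each class of length, and values beyond 2.5 are drawn at the edge. Most ribosomal protein genes lie near the bars at the left, and Rpl5 and Rpl22, between 2000 and 3000 bases, lie at about 0.80 where the bar is at -0.01, while Rps15a, at 5158 bases, lies at 0.16.

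The longer members varied in how far they lay from other genes of their length. Rpl5 and Rpl22, of 2036 and 2357 bases, had a median log2 fold change of 0.80, against -0.01 for 2918 other genes of 2000 to 3000 bases. The 4 members of 1500 to 2000 bases were Rpl15 at 0.81, Rps3 at 0.79, Rpsa at 0.42 and Rpl21 at 0.14, against a median of 0.07 for other genes of that length; Rps3 and Rpl21 are named after their values were seen. Shorter members could lie farther off: Rps14, of 606 bases, was at 1.71 where other genes of 500 to 750 bases had a median of 0.41. Rps15a, listed at 5158 bases, had a log2 fold change of 0.16 (SE 0.19), against -0.12 for other genes of 4000 to 6000 bases, with wild-type library 3 the highest of the 8 at 87.1 CPM. The shortest member, Rps28 at 328 bases, had one of 0.23 (SE 0.15).

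A fit with a gene-by-library correction for length put the members near 0. The correction was fitted over all tested genes, members included, without regard to group. It therefore also removes any difference between the groups that genes of like Length share, whatever its cause. Their median log2 fold change became -0.06, with 33 positive and 44 negative, against -0.01 for all tested genes. An unadjusted p below 0.05 was found in 7 members with a higher level, against a background of 6.71%, and in 2 with a lower level, against 5.11%, and 0 were called. Rps14 kept the highest value at 1.29, with Rpl13a at 0.98, Rps27a at 0.96, Rpl22 at 0.79, Rpl5 at 0.78 and Rps7 at 0.74. Values below 0 were found for Rplp1 (-0.21), Rpl38 (-0.16), Rpl41 (-0.18), Rps18 (-0.14) and Rps28 (-0.36), genes of 328 to 524 bases that were above 0 without the correction, and the lowest was that of Rpl30 (-0.54). In total 8 members stayed at 0.5 or above. The cause of the length relation was not tested.

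**Figure D5:**
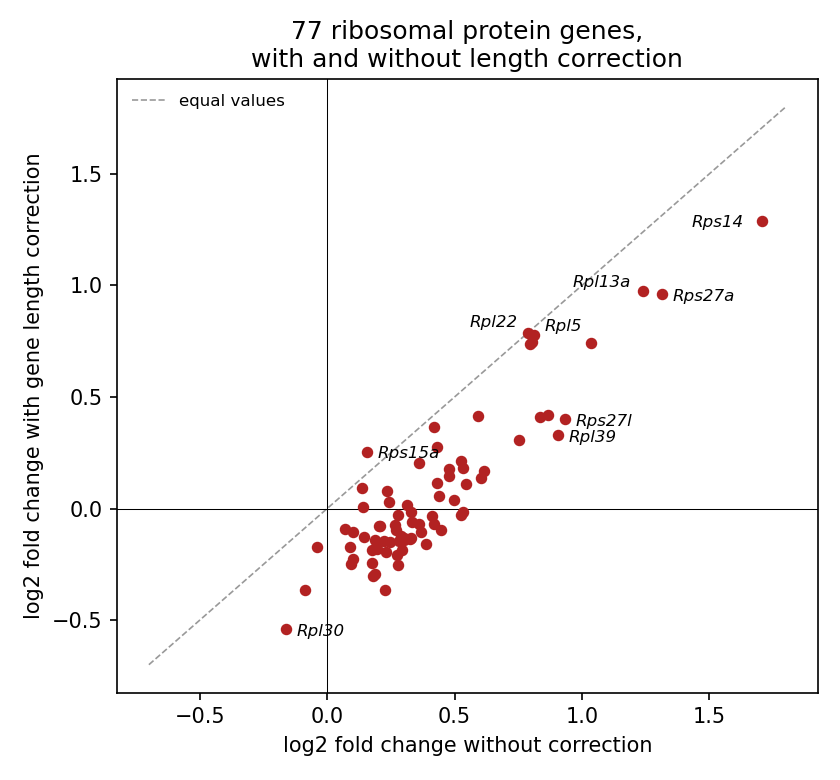
Log2 fold change of the 77 tested ribosomal protein genes without (horizontal axis) and with (vertical axis) a gene length correction; the dashed line marks equal values. Most genes drop to around 0, with a median of -0.06, while Rps14, Rpl13a and Rps27a stay near 1 or above.

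Levels of different members can be compared only per length. In CPM per kilobase of Length, averaged over the 8 libraries, the tested members ran from 1.59 for Rps27 to 875 for Rplp1, with a median of 312. Rplp1 was followed by Rps14 at 849, Rpl41, which encodes the smallest ribosomal protein, at 680 and Rps18 at 623. The position of Rps14 rests on its libraries, since its mean per kilobase was 1148 in knockout and 352 in wild type.

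Coverage also differed between members. The deposited coverage averaged at least 90% in 47 members and below 60% in 10. It was 22.3% in Rps15a, 52.8% in Rpl5 and 42.2% in Rpl30, so the Length of such genes includes stretches with no uniquely mapped read. The RefSeq gene table (GRCm38.p6) lists 297 pseudogenes named for members, for 55 of the 80 genes, among them 10 for Rpl30, 6 for Rps15a and 0 for Rps14. Reads shared with a near-identical copy are lost or split in such a count, so the levels of these genes are uncertain. The rank correlation over the 77 members of the pseudogene number with the log2 fold change was -0.08 and with coverage -0.14.

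Further lists, 5 in all, covered other genes of translation and its control and the mitochondrial ribosomal proteins, and gave 0 calls. Of all tested genes, 0.0729% were called higher and 0.154% lower, and 49.1% had a positive log2 fold change. Of 7 ribosome components outside the symbol rule, 6 had a positive log2 fold change, with a median of 0.28. The highest were Rpl22l1, a paralog of Rpl22, at 1.23 (SE 0.43) and the scaffold protein gene Rack1, listed as Gnb2l1, at 0.71 (SE 0.27). Of 16 genes of elongation or with oligopyrimidine messages, 11 were positive with a median of 0.13; Tpt1 was at 0.63 (SE 0.23) and the initiation factor gene Eif3h at 0.80 (SE 0.30). Of 30 ribosome biogenesis genes, 7 were positive and the median was -0.13. Of 11 genes of mTORC1 and Myc control, 4 were positive with a median of -0.17; the translation inhibitor gene Eif4ebp1 was at 0.65 (SE 0.23) while its relative Eif4ebp2 was at -0.56 (SE 0.25) and Larp1, which binds oligopyrimidine messages, at -0.57 (SE 0.23).

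These lists also differed in length. The median Length was 736 bases for the ribosome components, 1854 for the elongation and oligopyrimidine genes, 2928 for the biogenesis genes and 5395 for the mTORC1 and Myc genes, with the lower median fold changes in the longer lists. Of 73 mitochondrial ribosomal protein genes, which serve a separate ribosome, 64 had a positive log2 fold change. Their median was 0.19 at a median Length of 1067 bases. Tested genes of 1000 to 1500 bases outside the members had a median of 0.19, and 73.4% of them were positive. With the length correction the medians were -0.06, 0.05, -0.07, -0.06 and, for the mitochondrial list, -0.01.

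Markers of other cells were read beside the members. The summed level of 6 hepatocyte genes was 63913 CPM in knockout library 1, 104680 to 122703 CPM in the other knockout libraries and 136048 to 148767 CPM in the wild-type libraries. The groups did not overlap in this sum, and among single tested genes 3.61% had every knockout library below every wild-type library. Most of this sum is Alb, the albumin gene, at 46519 to 103809 CPM in knockout and 117989 to 130363 CPM in wild-type libraries. Its log2 fold change was -0.50 (SE 0.23, edgeR adjusted p 0.370). Of the 6 genes, 2 had a positive log2 fold change and 0 were called. For these marker counts, the background over all tested genes was 49.1% positive, 0.0729% called higher and 0.154% called lower. Of 9 tested erythroid genes, 9 had a positive log2 fold change and 0 were called; the list summed to 211, 122, 91.1, 222 and 227 CPM in knockout and 80.9, 84.8 and 91.3 CPM in wild-type libraries. Lymphocyte genes summed to 20.1 to 28.5 CPM against 18.8 to 25.4 CPM, with 2 of 6 tested genes positive. Neutrophil genes summed to 10.03 to 16.8 CPM against 4.61 to 10.1 CPM, with 4 of 4 positive. Every marker gene found in the table had at least 1 read. The members took 1.68, 2.43, 1.86, 2.11 and 2.28% of all reads in knockout libraries 1 to 5 and 1.39, 1.35 and 1.87% in wild-type libraries 1 to 3. Knockout library 1, high in the erythroid sum, was the lowest knockout library in this share. Knockout libraries 4 and 5 were high in the erythroid sum and higher in this share. Knockout library 2, with an erythroid sum of 122 CPM, had the highest share of all libraries at 2.43%. Knockout library 3, the lowest knockout library in the erythroid sum at 91.1 CPM, had a share of 1.86%. The part of these cells in the members' levels was not tested.

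Promoters of members are described here by sequence. The members' pattern over the libraries was shared with other short genes, and its relation to promoters was not tested. RefSeq's promoter table (build GRCm38.p6) held 59 of the 80 members, matched by gene identifier. Of these, 10 had several annotated starts, and the start farthest upstream was used for every gene. The build behind the deposited table is not given in the sources used here. Below are the 4 members with the highest and the 4 with the lowest log2 fold change among those in the table, with a chromosome set aside. Members on that chromosome were not considered, so members with more extreme values may be missing from this choice. Each is shown as 60 bases before and 20 from the annotated start, 5′ to 3′ on the gene's strand, so that the start is base 61. Capitals mark the longest unbroken run of C and T within 20 bases on either side of the annotated start, or the first of them where runs tie, as in 2 of the 8.
Rpl13a, chr7:45128726-45128805, minus strand: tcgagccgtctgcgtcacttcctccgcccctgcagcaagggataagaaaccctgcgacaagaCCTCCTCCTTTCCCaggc
Rps7, chr12:28635934-28636013, minus strand: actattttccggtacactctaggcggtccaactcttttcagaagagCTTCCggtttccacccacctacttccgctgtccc
Rps27l, chr9:66946026-66946105, plus strand: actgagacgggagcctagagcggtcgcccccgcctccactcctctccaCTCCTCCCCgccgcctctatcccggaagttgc
Rpl39, chrX:37085203-37085282, minus strand: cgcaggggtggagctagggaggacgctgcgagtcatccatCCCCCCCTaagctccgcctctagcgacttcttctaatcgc
Rps2, chr17:24720003-24720082, plus strand: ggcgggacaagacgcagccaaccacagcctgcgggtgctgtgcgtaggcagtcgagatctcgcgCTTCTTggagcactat
Rpl6, chr5:121204441-121204520, plus strand: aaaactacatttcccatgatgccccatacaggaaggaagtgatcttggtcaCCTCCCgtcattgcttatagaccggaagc
Rpl4, chr9:64173327-64173406, plus strand: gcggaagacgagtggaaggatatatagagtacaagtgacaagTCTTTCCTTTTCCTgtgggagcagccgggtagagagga
Rps4x, chrX:102189372-102189451, minus strand: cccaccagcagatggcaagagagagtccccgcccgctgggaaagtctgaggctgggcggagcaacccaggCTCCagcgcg
The first 4 had log2 fold changes from 1.24 to 0.91 and the last 4 from 0.09 to -0.09. The run was 14 bases in Rpl13a and equally 14 in Rpl4, which lie at opposite ends of the range, and 4 bases in Rps4x. In 5 of the 8, namely Rps7, Rps27l, Rpl39, Rpl6 and Rpl4, the marked run lies wholly before the annotated start. Such a run is outside the message as annotated. In Rps7 and Rpl39, the tied cases, a run of equal length also lies after the start. Their placing therefore follows from marking the first run. The marked runs are no measure of an oligopyrimidine message.

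A run of 8 or more pyrimidines in that window was found in 27 of 59 members, or 45.8%, and in 15.8% of 26966 other genes in the table; this measure was chosen after seeing the data. In the 300 bases of the table, on both strands, the GC-box letters GGGCGG were found in 59.3% of members and 35.9% of other genes. The letters CCGGAAG, in the manner of ETS factor sites, were found in 39% and 9.07%. The letters AAGATGGC, part of the YY1 motif, were found in 8.47% and 2.86%, and the TATA letters TATAAA in 10.2% and 14.2%. Matches to different motifs can overlap at their ends, and a match is a description of the sequence alone.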

How the data were processed

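Messenger RNA was measured in 8 mouse liver libraries. Per the labels' protocols, RNA was isolated on a column kit, checked on a Bioanalyzer, and made into libraries by BGI. The sources used here name no aligner, build, annotation or strandedness. Per the file headers, the authors deposited counts of uniquely mapped reads per gene, the percent of a gene covered by reads, a Length, and RPKM values, which equalled those recomputed from counts and were not used. Of 19464 rows, 229 shared 113 gene identifiers, whose counts were summed.

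Counts were tested in edgeR 4.0.16 (R 4.3.3): filterByExpr, TMM scaling, the quasi-likelihood F test without covariate, and Benjamini-Hochberg adjustment over 12338 genes, with calls at an adjusted p below 0.05. Fits were tested on simulated data. SE is the log2 fold change over the root of its F. CPM used TMM-scaled sizes; log2 CPM used a prior count of 2. Length correction added loess offsets (span 0.5) of log2 CPM on log2 Length per library. Alternatives were DESeq2 1.42.0, other scalings, no filter, each library left out and replicate number as a block.

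The members and lists were chosen with earlier results of these data known. Named members were the 8 highest and 4 lowest log2 fold changes, the 3 longest and 3 shortest, the 4 with the most CPM per kilobase, members fixed by role or as restricted copies, those not tested, and up to 3 genes of each list by p. Depth of 4.85 to 10.79 M (mega) reads per library limits low genes such as Rps27.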

Additional observations from a re-analysis of the deposited data

How the results depend on the processing

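No member was called under any edgeR setting run; DESeq2 without knockout library 1 called 17 higher. Without that library, DESeq2 called 1057 genes in all, and with all libraries 130, against 28 in edgeR. The members' median log2 fold change stayed positive without any 1 library, from 0.22 to 0.53, and under the other scalings and filters. It was -0.059 with the length correction, -0.019 with it and the replicate block, and -0.049 with it and without knockout library 1. Under these 3 settings, in that order, 33, 36 and 32 members were positive, 7, 0 and 14 had an unadjusted p below 0.05 with a higher level, 23, 8 and 97 genes were called in all, and the members' slope on Length turned to 0.20, 0.17 and 0.24 per doubling. Leaving out 1 library gave 0 to 55 members with an unadjusted p below 0.05 and a higher level and 13 to 114 calls in all, and DESeq2 without knockout library 1 gave 39 such members. The labels do not state that replicate numbers pair the libraries. Same-numbered libraries of the 2 groups correlated at 0.12, -0.15 and -0.15 in their deviations, too few values to decide it. With replicate number as a block, 1 member had such a p, against a background of 1.57%, 8 genes were called in all and Rpl4 turned to 0.0089. The cause of these shifts was not tested.

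Under the 3 length settings, in the order above, these log2 fold changes turned negative. Rpl10 gave -0.23, -0.13 and -0.31. Rpl38 gave -0.16, -0.13 and -0.20. Rpl41 gave -0.18, -0.13 and -0.23. Rpl6 gave -0.092, -0.040 and -0.13. Rplp1 gave -0.21, -0.19 and -0.25. Rplp2 gave -0.25, -0.23 and -0.31. Rps18 gave -0.14, -0.12 and -0.15. Rps19 gave -0.059, -0.092 and -0.049. Rps28 gave -0.36, -0.27 and -0.45. Rps6 turned to -0.021 under the last. Without 1 library, Rpl4 ranged from -0.081 to 0.015, Rpl30 from -0.26 to 0.033 and Rps15a from -0.011 to 0.44. Of 522 values for 29 named members, 480 kept direction and side of the threshold, 33 reversed and 9 passed it, all 9 in DESeq2 without knockout library 1.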
